A study of Mus musculus with 6 samples.

Results

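The U1 snRNP is the particle that recognises the start of an intron, the 5′ splice site, by base pairing between the site and the 5′ end of U1 snRNA. Snrnp70, Snrpa and Snrpc encode its specific proteins U1-70K, U1-A and U1-C, where U1-70K and U1-A bind stem-loops of U1 snRNA and U1-C helps to hold the U1 snRNA on the 5′ splice site. Luc7l, Luc7l2 and Luc7l3 are relatives of the yeast protein Luc7, and Prpf39 and Prpf40b are relatives of yeast Prp39 and Prp40, which are components of the yeast U1 snRNP; in mammals these proteins are looser partners of U1. The genes described here are these 8, found by their symbols among the 15705 genes of the deposited table. All 8 had a value in every library.

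The series compares mouse cortical neurons given N40K with neurons given a control virus. N40K is an N-terminal fragment of U1-70K, and the series asks how a disturbed U1 snRNP in Alzheimer's disease acts on splicing in neurons. The N40K group was exposed to lentivirus FCK1.3GW-N40K, with N40K behind a short CaMKII promoter, which is active in excitatory neurons. The control group was exposed to FCK1.3GW with EGFP behind the same promoter, so the controls also carried a lentivirus and a foreign protein. All neurons came from C57BL/6 embryos at embryonic day 18, and the virus was given at day 7 in culture for 3 days. Each group had 3 libraries of poly(A) RNA, and no label says whether replicates came from separate cultures; the p-values then rest on a spread between samples that may be technical.

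The deposited value is 1 Sd score per gene and library, read here as a splicing deficiency score. Its formula is not given in the sources used here. Scores of this kind usually set a gene's unspliced RNA against its spliced RNA; on that reading, splicing is less complete where the score is high. A score is not a level of expression. A fall of spliced RNA and a gain of unspliced RNA cannot be told apart. The depth behind the scores is unknown. Library medians were 0.0154 ± 0.000854 in N40K neurons and 0.0132 ± 0.000458 in control neurons (SD, n = 3 each), with a 2-sided exact permutation p of 0.1, the smallest that 20 assignments allow. Whether all genes share this upward displacement of the N40K libraries, or many genes rose one by one, was not tested. Scaling of the libraries takes it off in either case, and small rises can then turn into falls. Calls and counts are therefore given both as deposited and after scaling. Of the fixed marker names, 10 of 11 for neurons, 5 of 5 for astrocytes, 2 of 5 for microglia and 4 of 5 for the oligodendrocyte lineage had a score, which does not say how abundant those RNAs were.

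The start of U1 snRNA and the starts of introns in these genes are printed to show what the particle reads. The first 30 bases were the same in the U1 genes Rnu1b1, Rnu1b2, Rnu1b6 and Rnu1a1, given here as DNA with bases 3 to 11, which pair with the splice site, in capitals.
U1 snRNA 5′ end: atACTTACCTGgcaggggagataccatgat
Its complement over bases 3 to 11 is CAGGTAAGT, the sequence that pairs with U1 at all 9 positions. GENCODE M21 annotates retained-intron transcripts, RNAs that keep an intron, for 8 of the 8 genes, against 54.4% of the 14911 scored genes that it matched. They make up 31 of the 86 annotated transcripts of the 8 genes. Snrnp70 has 9 among 17 transcripts, Prpf39 has 6 among 10, Prpf40b has 6 among 15, and the others have 1 to 3. In Snrpa, Snrpc, Snrnp70, Prpf39 and Prpf40b such a transcript holds a whole intron of a coding transcript, which gave 12 splice sites to read. No intron of the LUC7-like genes was held whole with 10 bases on each side. The lines below give 1 site for each of these 5 genes, from the GRCm38 transcript sequences (introns counted along the coding transcript with most introns that has the site), with the last 3 bases of the exon and the first 6 of the intron in capitals.
Snrnp70 intron 3, chr7:45392253-45392272, minus strand: ggagagaAAGGTATGCtgtt
Snrpa intron 1, chr7:27195984-27196003, minus strand: gacggctCAGGTGGTGggtt
Snrpc intron 6, chr17:27848048-27848067, plus strand: gtgggacCAGGTAAGTcgga
Prpf39 intron 6, chr12:65053442-65053461, plus strand: tccagcaAAGGTAACCctct
Prpf40b intron 17, chr15:99309790-99309809, plus strand: ggccagcCGGGTAAGGcagc
The capitals matched the U1 complement at 6 of 9 positions in Snrnp70, 5 in Snrpa, 9 in Snrpc, 6 in Prpf39 and 7 in Prpf40b. No other site read in the same gene had more matches, and Snrpa and Prpf39 had another site with as many. The other sites matched at 8 and 6 positions in Snrpc and at 5 or 6 in Prpf40b. Over the 12 sites the median was 6 matches, as it was over all 7808 such sites in 3535 scored genes. The full match was found at 1 of the 12 sites and at 0.679% of the 7808. A score covers a whole gene, so no score here belongs to one of these introns.

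Of the 8 genes, Prpf39 and Luc7l3 rose in N40K neurons and none fell (limma, Benjamini-Hochberg adjusted p under 0.05 over all 15705 genes); at an unadjusted p under 0.05 there were 5, where 38.5% of all genes were under it. Over all genes 21.5% rose and 4.11% fell, so 2 of 8 is close to the share of rises among all genes. The 3 N40K scores were each higher than every control score in 4 of the 8, Snrnp70, Luc7l2, Luc7l3 and Prpf39, and each lower in Snrpc; the shares over all genes were 33.6% above and 8.67% below. The median ratio of mean scores, N40K over control, was 1.15 for the 8 genes and 1.11 for all genes. With 1 library left out at a time, each of the 2 rises was called in 1 of 6 fits, the one without N40K replicate 1. Their log2 changes stayed between 0.276 and 0.326 for Prpf39 and between 0.0616 and 0.0783 for Luc7l3. In these smaller fits the calls over all genes ranged from 1947 to 4215, beside 4017 with all 6 libraries.

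**Figure D1:**
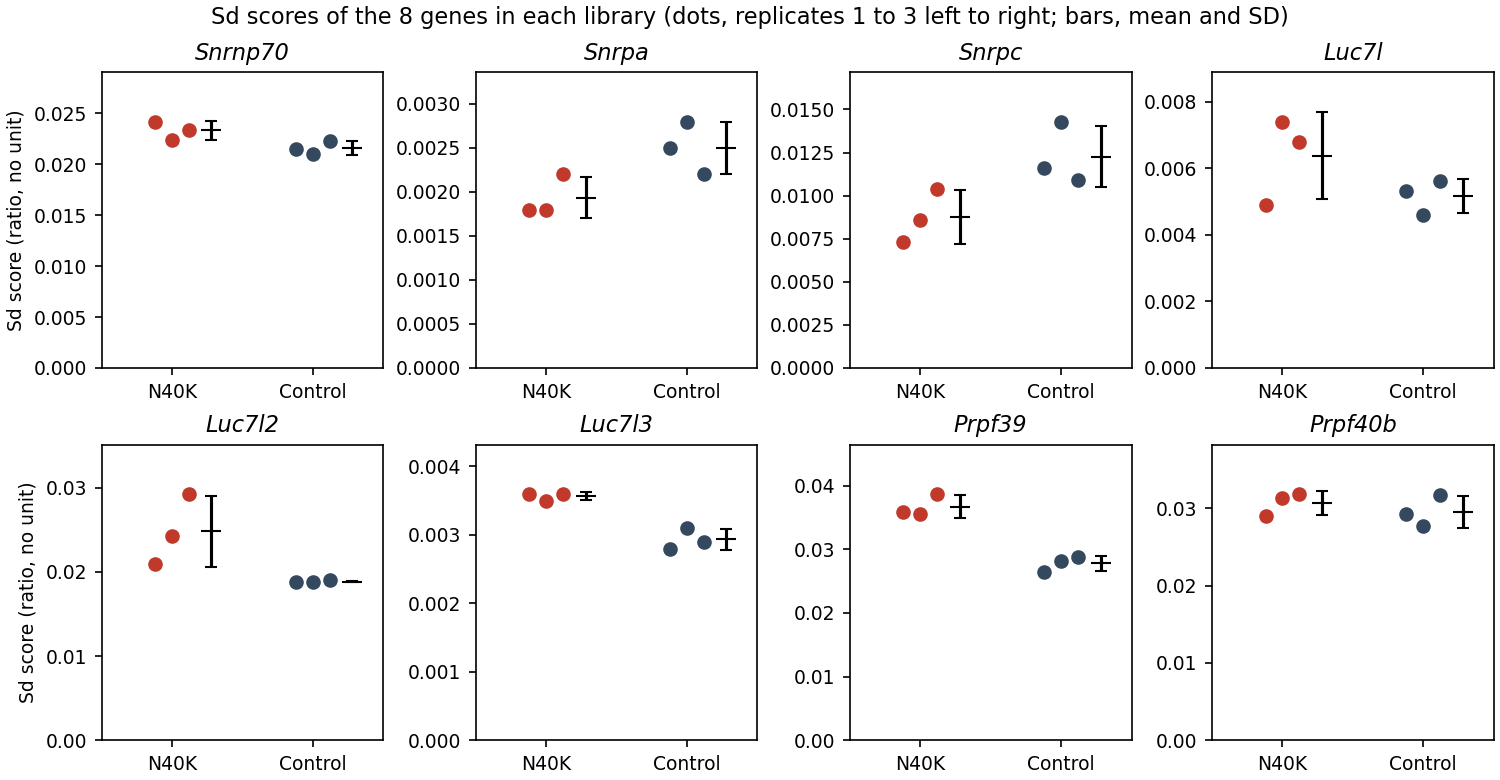
Sd scores (y axis, a ratio with no unit, each panel from 0) of the 8 genes in the 3 N40K and 3 control libraries; dots are libraries and bars the mean and SD. Prpf39 and Luc7l3 have 3 N40K dots above every control dot, and Snrpc has 3 below.

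Among the genes of the specific U1 snRNP proteins, Snrnp70, which encodes the protein that N40K is a fragment of, had the ratio nearest to 1. Snrnp70 scored 0.0242, 0.0224 and 0.0234 in N40K libraries and 0.0215, 0.0210 and 0.0223 in control libraries. The groups were apart by 0.0001, the last decimal of the table. The ratio of means was 1.08, with a log2 change of 0.077 ± 0.056 (SE) and a limma adjusted p of 0.376. In the fit without a pseudocount the ratio was 1.08 with a 95% interval of 0.949 to 1.23. No label says whether transgene reads were counted for Snrnp70, and the part of such reads in its score was not tested. The small difference upward turned to -0.053 after each library was centred on its median and to -0.063 after quantile normalization, both on the log2 scale. It stayed upward, at 0.011, after centring on the median deviation, and was -0.040 with that centring and no pseudocount.

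Snrpc and Snrpa had lower scores in N40K neurons, on the opposite side from most genes. The Snrpc scores were 0.0073, 0.0086 and 0.0104 in N40K libraries and 0.0116, 0.0143 and 0.0109 in control libraries. The highest N40K score lay under the lowest control score. The ratio of means was 0.715, with a log2 change of -0.25 ± 0.086 (SE) and a limma adjusted p of 0.0898. Snrpa scored 0.0018, 0.0018 and 0.0022 in N40K libraries and 0.0025, 0.0028 and 0.0022 in control libraries. The groups met at 0.0022, and 1 step of the last decimal is 4% of the control mean, so this gene is read coarsely. Its ratio was 0.773, with a log2 change of -0.067 ± 0.024 (SE) that the pseudocount of 0.01 shrinks. Without a pseudocount the log2 changes were -0.37 ± 0.13 for Snrpa and -0.49 ± 0.17 for Snrpc (limma adjusted p = 0.103 and 0.0906). Among the ratios of all 15705 genes, Snrpc stood at percentile 6.5 and Snrpa at percentile 9.14. Neither passed with the scores as deposited.

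Both passed as falls under each of the 4 scalings of the libraries. The limma adjusted p was between 0.0115 and 0.0356 for Snrpa and between 0.0209 and 0.0426 for Snrpc. After centring on the library median, 0 of the 8 genes rose and 2 fell, where 9.75% of all genes rose and 18.4% fell. After quantile normalization the 8 genes again gave 0 rises and 2 falls, against 12.9% and 12% of all genes. Taking off the median deviation of genes from their own mean in each library (median deviation centring) gave 1 rise, Prpf39, and 2 falls, against 14.2% and 9.67%. The same centring without a pseudocount gave 0 rises and 2 falls, against 15.3% and 8.4% of 14306 genes. Centring on the library median takes off 0.13 on the log2 scale, which is large beside changes that the pseudocount shrinks, as in Snrpa and Luc7l3; the last of these fits has no pseudocount. The direction for Snrpa and Snrpc was lower in every fit, and whether it passed depended on scaling.

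**Figure D2:**
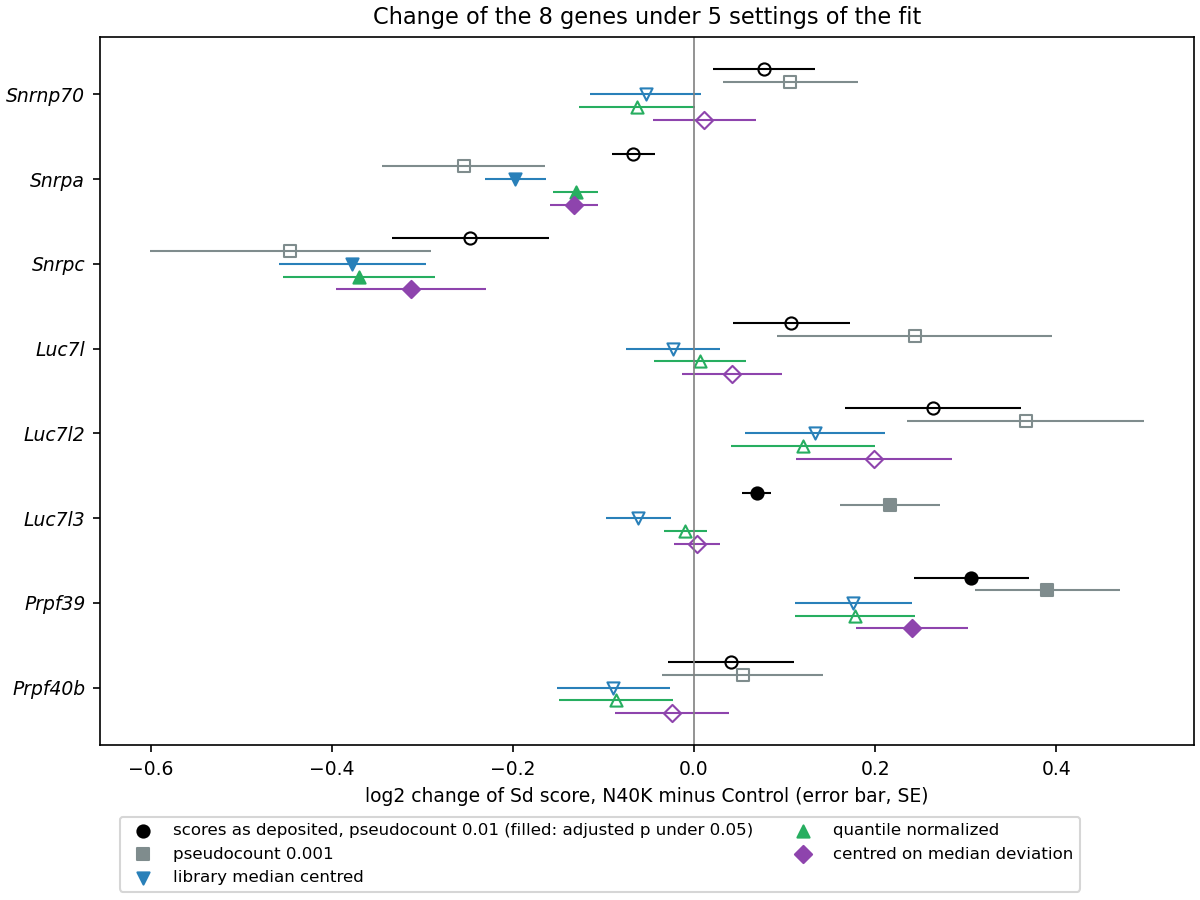
Log2 change of the Sd score, N40K minus control (x axis; error bars are SE), of the 8 genes (rows) under 5 settings of the fit; filled symbols have an adjusted p under 0.05. Snrpa and Snrpc lie left of 0 in every setting, Prpf39 and Luc7l2 lie right of 0, and Snrnp70, Luc7l, Luc7l3 and Prpf40b cross 0 under at least 1 scaling.

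The LUC7-like genes all had higher mean scores with N40K, but only Luc7l3 passed. Luc7l3 scored 0.0036, 0.0035 and 0.0036 in N40K libraries and 0.0028, 0.0031 and 0.0029 in control libraries. The replicates differed by at most 3 steps of the last decimal, and the groups did not overlap. The ratio was 1.22, with a log2 change of 0.069 ± 0.016 (SE) and a limma adjusted p of 0.0295; without a pseudocount it was 0.28 ± 0.078 (0.0473). This rise turned to -0.061 on the log2 scale after centring on the library median and to -0.0095 after quantile normalization, and it was 0.0036 after centring on the median deviation (adjusted p = 0.243, 0.796 and 0.933). With that centring and no pseudocount it was 0.13 (0.325). Whether Luc7l3 rose thus depended on the scaling of the libraries.

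Luc7l2 scored 0.0209, 0.0243 and 0.0293 in N40K libraries, with an SD of 17.0% of their mean. In control libraries it scored 0.0188, 0.0188 and 0.0190, with an SD of 0.612% of the mean. All N40K libraries were above all controls, with a ratio of 1.32, a log2 change of 0.26 ± 0.097 (SE) and a limma adjusted p of 0.102. Luc7l scored 0.0049, 0.0074 and 0.0068 in N40K libraries and 0.0053, 0.0046 and 0.0056 in control libraries. Here N40K replicate 1 lay inside the control range and the other two lay above it, with a ratio of 1.23 and a limma adjusted p of 0.285. In both genes N40K replicate 1 was the lowest of its group, and without it both passed as rises (0.0408 for Luc7l2 and 0.0379 for Luc7l). Neither passed in the other 5 fits without 1 library, where the log2 change of Luc7l2 was 0.17 (0.168) without N40K replicate 3 and that of Luc7l was 0.062 (0.568) without N40K replicate 2. Neither passed under any scaling. After centring on the library median and after quantile normalization, the log2 changes were 0.13 and 0.12 for Luc7l2 and -0.023 and 0.0066 for Luc7l. The interval of the ratio without a pseudocount was 1.04 to 1.64 for Luc7l2 and 0.898 to 1.65 for Luc7l.

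Prpf39 showed the clearest rise of the 8. In yeast Prp39 pairs with its relative Prp42 inside the U1 particle. Prpf39 scored 0.0358, 0.0356 and 0.0387 in N40K libraries and 0.0264, 0.0281 and 0.0288 in control libraries. The gap between the groups was wider than the range within either. The mean was 0.0367 ± 0.00173 in N40K neurons and 0.0278 ± 0.00123 in control neurons (SD, n = 3 each), a ratio of 1.32. The log2 change was 0.31 ± 0.064 (SE), with a limma adjusted p of 0.0206, and the interval of the ratio without a pseudocount was 1.15 to 1.52. The rise kept its direction under every scaling. Its call ended after centring on the library median (0.0888), after quantile normalization (0.103) and after centring on the median deviation without a pseudocount (0.0833), and held after centring on the median deviation alone (0.0394). It also ended without N40K replicate 2 (0.0548), N40K replicate 3 (0.0534), control replicate 1 (0.0733), control replicate 2 (0.0643) or control replicate 3 (0.057). By annotation 6 of the 8 genes overlap another gene, against 59.2% of the matched scored genes. Prpf39 overlaps the coding gene Fkbp3 on the other strand and a snoRNA gene on its own strand. Whether reads of a neighbour entered its score was not tested.

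Prpf40b, whose yeast relative Prp40 bridges U1 to the factor at the branch point, had overlapping groups. It scored 0.0290, 0.0313 and 0.0319 in N40K libraries and 0.0293, 0.0277 and 0.0318 in control libraries. The ratio was 1.04, with a limma adjusted p of 0.72 and an interval without a pseudocount of 0.89 to 1.21. Its change was slightly upward as deposited and below 0 under all 4 scalings, from -0.024 to -0.096 on the log2 scale.

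**Figure D3:**
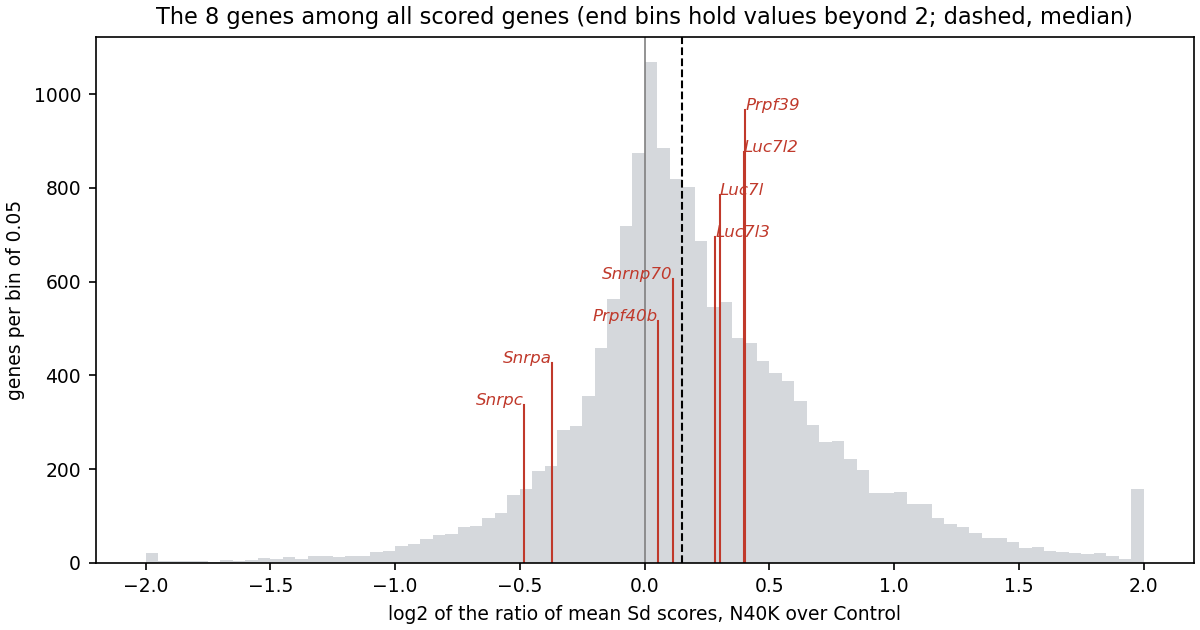
Number of genes (y axis) by the log2 ratio of mean Sd scores, N40K over control (x axis, bins of 0.05; end bins hold values beyond 2), over all 15705 genes, with the 8 genes as red lines and the median of all genes dashed. Snrpc and Snrpa stand in the left part at ratios of 0.715 and 0.773, and Prpf39 and Luc7l2 stand to the right of the median at 1.32 each.

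The order of the scores among the 8 genes was much alike in both groups, with a change at the top. In N40K neurons Prpf39 was the highest, followed by Prpf40b, Luc7l2, Snrnp70, Snrpc, Luc7l, Luc7l3 and Snrpa. In control neurons Prpf40b was first, followed by Prpf39, Snrnp70, Luc7l2, Snrpc, Luc7l, Luc7l3 and Snrpa. Prpf39 and Prpf40b did not overlap in N40K libraries and did in control libraries, while Luc7l2 and Snrnp70 overlapped in N40K libraries and not in control libraries. Prpf40b and Luc7l2, as well as Snrpc and Luc7l, overlapped as neighbours in N40K libraries, and Luc7l3 and Snrpa met at 0.0028 in control libraries. Among all genes, Prpf39 stood at percentile 68.3 of the N40K scores and 65.4 of the control scores, and Snrpa at 7.49 and 14.0. The scores of different genes are set side by side here as deposited ratios, since their denominators are not given.

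Ratios of 2 genes within a library cannot be moved by a common scaling factor. Of the 28 pairs among the 8 genes, 17 had ratios that did not overlap between the groups, where 43.8% of all pairs of scored genes did so. Of the 17, 12 involved Snrpa or Snrpc, as did 13 of all 28 pairs. Snrnp70 over Snrpc was 3.32, 2.60 and 2.25 in N40K libraries and 1.85, 1.47 and 2.05 in control libraries. Snrnp70 over Snrpa was 13.4, 12.4 and 10.6 in N40K libraries and 8.6, 7.5 and 10.1 in control libraries. Snrnp70 thus scored higher relative to both Snrpc and Snrpa in every N40K library than in every control library, by factors of means of 1.52 and 1.39. The nearest values of Snrnp70 over Snrpa, 10.6 and 10.1, both divide by a Snrpa score of 0.0022. For Snrpa 1 step of the last decimal is 4% of the control mean, so that gap is not well resolved. Snrpa over Snrpc overlapped, at 0.222 ± 0.0209 in N40K neurons and 0.204 ± 0.0101 in control neurons (SD, n = 3 each). Prpf39 over Prpf40b was 1.23, 1.14 and 1.21 in N40K libraries and 0.901, 1.01 and 0.906 in control libraries. Ratios among the LUC7-like genes overlapped in all 3 pairs. Pairs share genes and libraries, so these counts are descriptions with no test.

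**Figure D4:**
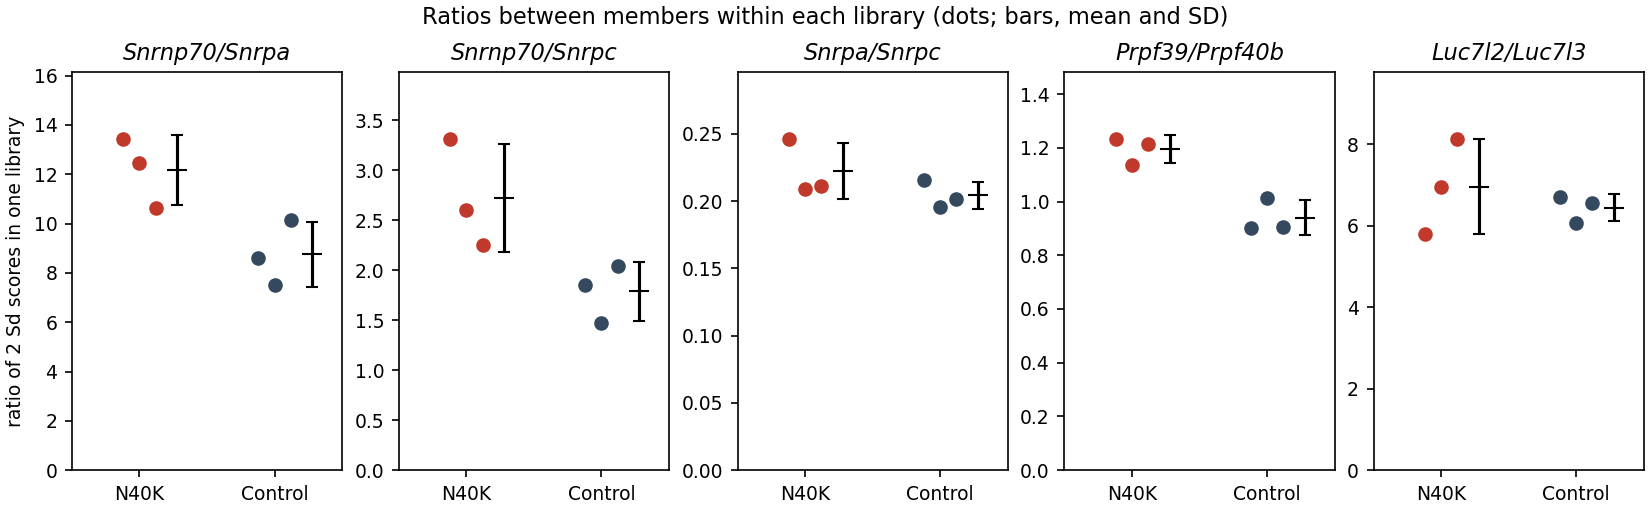
Ratio of 2 Sd scores taken within 1 library (y axis, no unit, each panel from 0) for 5 of the 28 pairs in the 3 N40K and 3 control libraries; dots are libraries and bars the mean and SD. Snrnp70/Snrpa, Snrnp70/Snrpc and Prpf39/Prpf40b have every N40K dot above every control dot, and Snrpa/Snrpc and Luc7l2/Luc7l3 overlap.

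The genes whose scores followed Snrnp70 most closely over the 6 libraries were Dnahc1, Psmc3ip and Yif1b. Their Pearson correlations with Snrnp70 on the log2 scale were 0.990, 0.989 and 0.987, among 9332 genes whose mean score was 0.01 or more, of which 185 had a correlation over 0.9. All values come from the same 6 libraries, and so many genes reach such a correlation that it singles out none of them.

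Other genes around U1 were read from lists of related factors. Their counts are to be set beside the 21.5% of all genes that rose and the 4.11% that fell. After scaling, those shares were 9.75% and 18.4% (library median) and 12.9% and 12% (quantile). They were 14.2% and 9.67% after median deviation centring, and 15.3% and 8.4% after that centring without a pseudocount. Of 12 other direct partners of the particle, 3 rose and 0 fell, with a median log2 change of 0.06 for the list and 0.06 for all genes. The share of 25% that rose is near that of all genes. This list gave 1 rise and 2 falls after centring on the library median and after quantile normalization. Both median deviation centrings gave 1 rise and 1 fall. Tia1, an RNA-binding protein that recruits U1 to weak 5′ splice sites, scored 0.0364 ± 0.00319 in N40K neurons and 0.0249 ± 0.00337 in control neurons (limma adjusted p = 0.0291), and it passed under all 4 scalings. Of the 8 Sm ring genes, whose proteins U1 shares with other snRNPs, 0 rose and 2 fell, with a median log2 change of -0.026; these were Snrpg, with a ratio of 0.643 (limma adjusted p = 0.00533), and Snrpf, with 0.739 (0.031). The Sm ring gave 6 falls after centring on the library median, where 18.4% of all genes fell, and 3 after quantile normalization. It gave 2 after centring on the median deviation with or without a pseudocount, with 0 rises under each scaling. The fit without a pseudocount held only 6 of the 8, as Snrpd3 and Snrpn had mean scores under 0.002. The library median centring takes off 0.13 on the log2 scale, which outweighs small upward changes. Snrpd3, Snrpd1 and Snrpn had higher mean scores with N40K as deposited, at ratios of 1.43, 1.23 and 1.08. These ratios are coarse, as 1 step of the last decimal is 14.3% of the control mean for Snrpd3 and 8.33% for Snrpn. Snrpn scored 0.0013 in every N40K library and 0.0012 in every control library. Snrpd1 scored 0.0021, 0.0019 and 0.0034 in N40K libraries and 0.0019 to 0.0021 in control libraries, so its ratio rests on N40K replicate 3. Their log2 changes, shrunk by the pseudocount, were 0.040, 0.053 and 0.013. The 6 falls therefore do not mean that 6 of the 8 genes scored lower as deposited. Snrpg and Snrpf fell under all 4 scalings. Of the 5 partners at the 3′ splice site in the early complex, limma called 0 with the scores as deposited, 0 had an unadjusted p under 0.05, and the median log2 change was -0.033. That count depended on scaling, with 2 falls after centring on the library median and after quantile normalization and 1 after centring on the median deviation with or without a pseudocount. The calls of Tia1 and Snrpf each ended in 5 of the 6 fits without 1 library.

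Genes listed for the U11/U12 particle of the minor spliceosome, which removes a rare class of introns, moved in both directions. Of 7 such genes 2 rose and 1 fell, with a median log2 change of -0.084. Under each of the 4 scalings 1 rose and 3 fell, so the balance of calls turned. Over all genes it also turned after centring on the library median, where 9.75% rose and 18.4% fell. It did not turn over all genes after quantile normalization (12.9% and 12%) or median deviation centring (14.2% and 9.67%, or 15.3% and 8.4% without a pseudocount). Snrnp35, whose protein is the counterpart of U1-70K in the U11/U12 particle, scored 0.0321, 0.0370 and 0.0298 in N40K libraries and 0.0148, 0.0141 and 0.0166 in control libraries. Every N40K library lay well above the controls, with a ratio of 2.17, a log2 change of 0.77 ± 0.09 (SE) and a limma adjusted p of 0.00406. Snrnp48, another protein of that particle, scored 0.0249, 0.0228 and 0.0259 in N40K libraries and 0.0436, 0.0414 and 0.0419 in control libraries. Its ratio was 0.58, with a log2 change of -0.60 and a limma adjusted p of 0.00386. Both calls held under every alternative, including each of the 6 fits without 1 library. Pdcd7 rose with a ratio of 1.36 (0.0408), a call that ended in all 6 of those fits and under all 4 scalings (adjusted p = 0.235, 0.226, 0.0859 and 0.105). Its log2 change was 0.24 as deposited and 0.11 after centring on the library median.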

How the data were processed

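The authors deposited 1 table of Sd scores, treated here as a linear ratio because they range upward from 0.0001 with 4 decimals. Libraries were stranded, made from poly(A) RNA and read as 100 bp pairs, per the labels' protocols. BWA, STAR, CASAVA, bedtools 2.16.1 and mm9 are named in the submitters' processing notes without saying what each was used for. How the score was computed and filtered is not given in the sources used here. Columns were matched to libraries by name, and no 2 columns were identical.

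The test was limma 3.58.1 (R 4.3.3; lmFit, eBayes with trend) on log2(score + 0.01), 2-sided, adjusted by Benjamini-Hochberg over all 15705 genes, with a threshold of 0.05. The filter, a score above 0 in at least 3 libraries, removed 0 genes. "Rose" and "fell" refer to scores as deposited unless a scaling is named. Intervals are 95% limma intervals from the fit without a pseudocount (14306 genes whose mean score was 0.002 or more). The fit was tested on simulated data, which cannot show how it behaves on Sd scores, as their formula and depth are unknown.

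Named were all 8 genes, up to 3 called genes with the smallest p per related list, and the 3 genes most like Snrnp70. Some genes that this rule names are counted in their list and not reported here singly. Members and lists were chosen with earlier results of these data known, and the within-library ratios and the splice sites, including the 1 printed for each gene, were chosen after the values were seen. Transcript types, overlaps and sequences came from GENCODE M21 (GRCm38), another build than mm9, by Ensembl identifier.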

Additional observations from a re-analysis of the deposited data

How the results depend on the processing

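The 2 called genes of the 8 became 0 to 4 with 1 library left out (rises 0 to 4, falls 0), 1 without the lowest 25% of genes (6 of the 8 left, 1 rise), 1 with eBayes without trend (1 rise) and 0 with the replicate block (0 rises). Library median centring, quantile normalization and median deviation centring without a pseudocount each gave 0 rises and 2 falls; median deviation centring alone gave 1 and 2. Over all genes the 4017 calls (3372 rises, 645 falls) became 1947 to 4215 with 1 library left out (1613 to 3729 rises and 303 to 486 falls), 2452 (1969 rises) without the lowest 25%, and 2098 (1770 and 328) with the replicate block. Rises and falls of all genes were 1531 and 2883, 2022 and 1883, 2235 and 1518, and 2190 and 1202 under the scalings named above, in the order library median, quantile, median deviation, and median deviation without a pseudocount. The difference in library medians, 0.0022, stayed between 0.00175 and 0.0026 with 1 library left out. The log2 change turned below 0 for Snrnp70 (-0.053, -0.063 and -0.0399 under library median, quantile, and median deviation without a pseudocount), Luc7l (-0.023, library median), Luc7l3 (-0.061 and -0.0095, library median and quantile) and Prpf40b (-0.089, -0.086, -0.024 and -0.096 under the 4 scalings). These scalings take off the upward displacement of the N40K libraries, 0.13 on the log2 scale for the library median. They do so whether it is common to all genes or made of separate rises, which was not tested. Other causes were not tested. No label says what same-numbered libraries share. Their deviations correlated at -0.0712, 0.0376 and -0.0201, which cannot tell whether they shared a culture or a day. The replicate block ended the calls of Prpf39 (adjusted p = 0.0648) and Luc7l3 (0.105). The score's last decimal limits Snrpa and Luc7l3 among the 8 genes, and Snrpd3 and Snrpn in the Sm ring. The depth behind all scores is unknown.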
